A study of Arabidopsis thaliana with 24 samples.

Results

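The 117 genes described here are those whose transcript level stood higher in roots of the Arabidopsis thaliana double mutant bzip1/bzip53 than in Col-0 wild-type roots after 3 h in salt. They were chosen from the deposited log2 values of probe sets that report 1 gene. The mean of the 3 mutant arrays at 3 h had to exceed the mean of the 3 wild-type arrays by at least 1 on the log2 scale, and the lowest of those mutant arrays had to lie above the highest of the wild-type ones. BGLU27, AT5G52670 and AT5G52680 were left out by the rule, and each gene was followed with its probe set of highest mean. The 117 were drawn from 13356 named genes. The share of 1-gene probe sets that met the criteria was 0.895% (121 of 13513), and the mirrored criteria, lower in the mutant, were met by 37. Since the 3 h arrays chose the genes, every value at 3 h is given as a description with no test.

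Roots of 6-week-old plants in hydroponic culture were measured on 24 one-colour ATH1 arrays. The double mutant bzip1/bzip53 (Col-0 background) and Col-0 wild type were each sampled without added salt (called the control) and in 150 mM NaCl for 1 h, 3 h or 6 h. Each of these 8 groups had 3 arrays. The labels speak of knockout plants of both genes and of biological replicates, but do not say how plants were divided between arrays, so that a p-value measures only how far arrays of a group spread. Some labels call the tissue seedling roots and others give the age of 6 weeks. The arrays read whole roots, in which fewer cells of a type and less RNA per cell cannot be told apart.

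bZIP1 and bZIP53 are basic leucine zipper transcription factors that bind DNA as dimers and are known for switching on genes of amino acid and sugar metabolism when plants run short of energy. Salt in the root medium acts on the root both through the loss of available water and through sodium itself. Roots are known to answer within hours with transcripts for protective proteins, detoxifying enzymes, ubiquitin ligases and signalling proteins, and many of these genes also respond to wounding, pathogens or toxic chemicals.

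The genotype labels were checked on BZIP53. In the mutant its control level was 9.19 ± 0.041, followed by 8.74 ± 0.074 after 1 h, 8.86 ± 0.036 after 3 h and 9.0 ± 0.12 at 6 h, against 10.57 ± 0.26, 11.01 ± 0.09, 11.0 ± 0.12 and 10.93 ± 0.086 in wild type at the same times (log2, SD, n = 3). The gene table used named no probe set for bZIP1. Array medians over all probe sets lay between 6.53 and 6.67, and 2 arrays of a group correlated at 0.985 to 0.997. Of 12 root markers the gene table named 1, the root-hair expansin EXPA7, whose group means ran from 6.12 to 8.23. Of 10 green-shoot markers it named 2, LHCB4.2 (5.29 to 5.78) and RCA (5.61 to 6.47), so that the tissue was checked by few genes.

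The median level of the genes was low in roots without salt and stood higher at 6 h than at 1 h in both genotypes. In the mutant the array medians of 3 h and 6 h overlapped. The median level of the 117 genes in the mutant arrays was 6.04, 5.39 and 5.26 in the control, 6.68, 6.30 and 7.33 at 1 h, 8.88, 8.87 and 8.55 at 3 h, and 8.80, 8.96 and 8.42 at 6 h (log2). In the wild-type arrays it was 5.06, 5.11 and 6.22 in the control, 6.40, 6.25 and 7.19 at 1 h, 7.06, 7.73 and 7.49 at 3 h, and 8.63, 7.91 and 8.99 at 6 h. The 2 genotypes overlapped at each time but 3 h. At 3 h, whose arrays chose the genes, the mutant medians lay in the range that both genotypes had at 6 h. The wild-type medians at 3 h lay between those of 1 h and 6 h, apart from overlap with array 3 at 1 h.

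**Figure D1:**
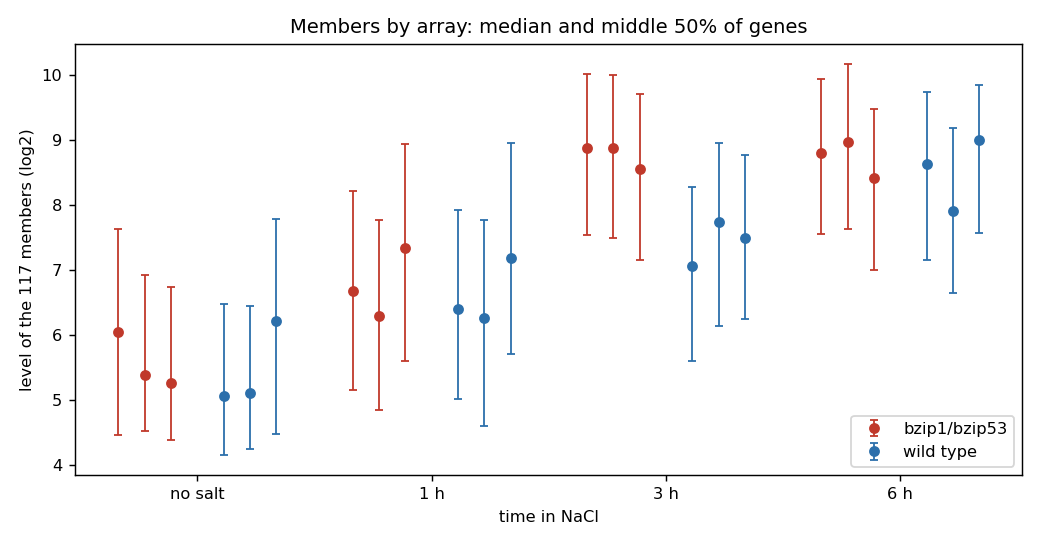
Median level (log2, points) and middle 50% of genes (bars) of the 117 genes in each of the 24 arrays, bzip1/bzip53 in red and wild type in blue, by time in 150 mM NaCl. The 3 h mutant medians (8.55 to 8.88) stand above the 3 h wild-type medians (7.06 to 7.73), and the genotypes overlap at the other times.

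The difference that defines the genes at 3 h, mutant minus wild type, had a median of 1.22 and ran from 1.01 to 2.25 (log2), while the median over all probe sets was -0.01. AT4G37290 had the largest. Its level in the mutant was 5.01, 4.57 and 4.34 in the control, 5.08, 4.48 and 5.25 at 1 h, 7.60, 7.63 and 6.81 at 3 h, and 6.60, 6.92 and 5.98 at 6 h. In wild type it was 4.15, 4.47 and 4.15 in the control, 4.41, 4.27 and 4.92 at 1 h, 4.92, 5.18 and 5.21 at 3 h, and 5.83, 5.53 and 6.77 at 6 h. The mutant was highest at 3 h: apart from mutant array 2 at 6 h, no array of another group reached the lowest of those 3 arrays, and the genotypes overlapped again at 6 h.

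AT5G60350 followed, with 8.34, 8.65 and 7.77 in the mutant at 3 h, against 6.01, 6.69 and 6.35 in wild type. AT4G18250 had 7.64, 8.01 and 7.27 in the mutant at 3 h, against 5.31, 5.68 and 6.32 in wild type. The other genes among the 12 with the largest difference were AT5G44820, AT3G60420, AT3G28580, AT1G68620, AT4G26120, AT2G04050, AT3G01830, AT3G54150 and the glutathione transferase GSTU25. AT5G44820 was read by a second probe set that also met the criteria, with a 3 h difference of 2.12. A second probe set of AT3G60420 stayed between 3.35 and 3.58 in the means of all 8 groups, near the background, and showed a difference of 0.02. At the lower edge, AT1G53430, AT1G21530 and AT5G67340 each had a difference of 1.01 and were kept. AT1G65570, BGLU31 and AT4G11350, with differences just under 1 (0.999, 0.999 and 0.998), were not, nor were AT1G20310 (1.34), TET9 (1.09) and AT1G57630 (1.07), whose arrays overlapped.

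Some technical values also differed between the 3 h groups. The probe set for 25S ribosomal RNA read 13.03, 13.12 and 13.10 in the mutant at 3 h, against 13.46, 13.23 and 13.39 in wild type, with no overlap. The array medians over all probe sets were 6.58, 6.60 and 6.58 in the mutant, against 6.62, 6.62 and 6.64 in wild type. The 3′ minus 5′ signal of actin, a sign of RNA integrity, was 2.67, 2.78 and 2.38 in the mutant, against 2.72, 2.72 and 2.92 in wild type, and overlapped. The part of these values in the 3 h difference was not tested.

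The question of whether the genes also differed between genotypes outside the 3 h arrays was asked of the other 18 arrays, in which each comparison was tested by limma over 22746 probe sets with Benjamini-Hochberg adjustment and a threshold of 0.05. Without salt, 0 of the 117 genes passed the test between mutant and wild type, beside 0.0967% of all probe sets, and 3 had an unadjusted p under 0.05. The median difference, mutant minus wild type, was 0.08 (range -0.46 to 1.51), against -0.02 over all probe sets. At 1 h again 0 passed, beside 0.0176% of all probe sets, and 0 had an unadjusted p under 0.05. The median difference was 0.10 (range -0.29 to 0.50), against -0.00465 over all probe sets.

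After 6 h, 0 of the 117 genes passed, beside 0.361% of all probe sets, and 12 had an unadjusted p under 0.05. The median difference was 0.30 (range -0.87 to 1.33) with a median SE of 0.33, against -0.01 over all probe sets. The sign was positive for 93 genes (79.5%, against 47.0% of all probe sets) and negative for 24. At 1 h it had been positive for 97 genes (82.9%, against 48.2% of all probe sets), and in the control for 72 (61.5%, against 43.1%). Arrays of a group moved together across these genes, so that the signs are not independent. The mutant arrays lay wholly above the wild-type arrays for 7 genes, beside 6.03% of all probe sets, and wholly below for 3, beside 9.67%. When known differences were added to simulated arrays for this comparison (22746 probe sets), the test recovered 47.8% of those of 0.5, 86.6% of those of 1 and 98.5% of those of 2 (log2). The changed probe sets were 200 drawn at random from all probe sets, and the noise of each array was drawn independently. These shares are therefore not shown to hold for the 117 genes, whose arrays moved together. Of the 117 genes, 3 had a difference of at least 1 at 6 h, and none of these passed. No difference as small as the median was simulated, and the missing calls do not show that the levels were equal.

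**Figure D2:**
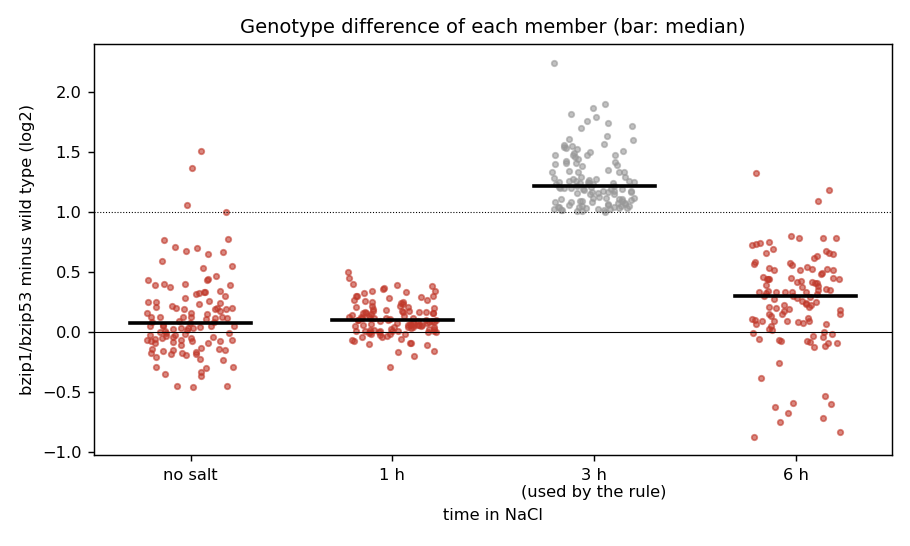
Difference of group means, bzip1/bzip53 minus wild type (log2), of each of the 117 genes by time in 150 mM NaCl, with the median as a bar and the threshold of 1 dotted. The grey points at 3 h lie above 1 by construction, and the medians at the other times are 0.08, 0.10 and 0.30.

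AT3G43250 had the largest difference at 6 h. Its level was 8.71, 8.53 and 7.73 in the mutant, against 6.80, 5.64 and 8.54 in wild type, a difference of 1.33 ± 0.75 (SE, limma, adjusted p = 0.521). Wild-type array 3 lay among the mutant arrays. AT1G72940 had 9.28, 9.25 and 9.22 in the mutant at 6 h, against 7.96, 7.52 and 8.99 in wild type, with no overlap and a difference of 1.09 ± 0.46 (limma, adjusted p = 0.35). AT3G05320 differed by 0.80 ± 0.45 (limma, adjusted p = 0.521) and AT3G01830 by 1.18 ± 1.2 (limma, adjusted p = 0.759), the widest error among the named genes.

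Other genes stood lower in the mutant by 6 h, none with a call in these 18 arrays. AT1G15330 had 6.30, 6.73 and 5.98 in the mutant, against 7.05, 6.89 and 7.56 in wild type, a difference of -0.83 ± 0.17 (limma, adjusted p = 0.0542). At 3 h the same gene had stood at 7.18, 7.25 and 7.09 in the mutant, against 5.79, 6.19 and 6.39 in wild type. The arrays did not overlap at either time, in opposite directions. Without mutant array 2 at 6 h the difference was -1.03 (adjusted p = 0.00592), and without wild-type array 2 it was -0.97 (adjusted p = 0.0317), and either omission thus brought a call. Leaving out any other single array brought none. AT2G26690 (NPF6.2), of a family of nitrate and peptide transporters, was named after its values were seen. It had 6.89, 7.35 and 6.92 in the mutant at 6 h, against 7.55, 7.46 and 7.73 in wild type, a difference of -0.53 ± 0.11 (limma, adjusted p = 0.0637), and -0.68 (adjusted p = 0.00381) without mutant array 2. That array was the highest of its group for AT2G26690, and leaving out any other single array brought no call. AT5G28520 had the lowest difference, -0.87 ± 0.5 (limma, adjusted p = 0.527), with 8.52, 7.91 and 7.18 in the mutant, against 9.07, 7.16 and 9.98 in wild type.

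Arrays of a group moved together across these genes. At 6 h, mutant array 3 was the lowest of its group for 107 of the 117 genes, and wild-type array 2 was the lowest of its group for 107 as well. Mutant array 2 at 6 h was the highest of its group for 82 genes, so that leaving it out lowers the mutant mean of most genes. At 1 h, array 3 was the highest of its group for 102 genes in the mutant and for 103 in wild type. In the controls, mutant array 1 and wild-type array 3 stood apart. Mutant control array 1 was above both other mutant control arrays for 81 genes and at least 1 above their mean for 26 (22.2%, against 1.31% of all probe sets). Wild-type control array 3 was above both others for 91 genes and at least 1 above their mean for 33 (28.2%, against 1.82% of all probe sets). AT3G01830 showed it most, with 7.16, 4.99 and 3.59 in the mutant control and 3.50, 3.20 and 8.03 in the wild-type control. In mutant control array 1 the spiked-in dap transcript read 6.27, against at most 3.18 in the other arrays. Its 25S ribosomal RNA value, 11.93, was the lowest of the 24 arrays (12.63 and 12.52 in the other mutant controls). Its 3′ minus 5′ signal of actin, 3.17, was the highest (2.60 and 2.40 in the other mutant controls), closely followed by mutant array 1 at 6 h (3.16). Wild-type control array 3 had 12.58 for the ribosomal RNA and 2.55 for actin. The part of these values in the results was not tested beyond leaving the arrays out.

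Most of the genes rose with salt in both genotypes, and by 6 h nearly all had. In the mutant at 6 h against its control, 106 of the 117 genes rose and 0 fell (beside 45.6% of all probe sets called in either direction, 17.5% higher and 28.1% lower), with a median log2 change of 2.55 against -0.08 over all probe sets. In wild type, 107 rose and 1 fell (108 passed, beside 45.3% of all probe sets called in either direction, 15.6% higher and 29.6% lower), with a median of 2.36 against -0.08. At 6 h, 104 genes rose in both genotypes and 5 in 1 of them. Without mutant control array 1 and wild-type control array 3, 109 genes passed in the mutant and 111 in wild type.

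At 1 h, 44 genes had risen and 0 had fallen in the mutant (beside 21% of all probe sets called in either direction, 8.98% higher and 12.1% lower). In wild type 42 had risen and 1 had fallen (43 passed, beside 22% of all probe sets called in either direction, 7.97% higher and 14% lower). The median change was 0.80 in the mutant and 0.83 in wild type, against -0.02 and -0.04 over all probe sets. The 1 h counts depended on arrays: without mutant array 3 at 1 h 20 genes passed in the mutant, and without mutant control array 3 26 did. In wild type 26 passed without control array 1, without control array 2 or without array 3 at 1 h. All 44 genes that had risen in the mutant by 1 h had also risen at 6 h, and a further 62 rose at 6 h without a call at 1 h. In wild type the 42 genes of 1 h had likewise all risen at 6 h, with a further 65 at 6 h alone. Among the genes with the smallest adjusted p at 1 h, AT1G66090 rose by 2.99 ± 0.51 in the mutant and by 2.42 ± 0.51 in wild type, and AT3G16530 by 2.50 ± 0.33 in the mutant and by 1.98 ± 0.33 in wild type (log2, SE, limma, adjusted p between 6.03e-05 and 0.00259). AT4G28703, AT5G38310, AT5G39580 and AT5G22530 rose in both genotypes too, and the 1 h calls of these 6 genes held when any 1 array was left out. When the salt response of the mutant was set against that of wild type, the difference (mutant minus wild type) passed for 0 of the 117 genes at 6 h (beside 0.0352% of all probe sets, 5 with an unadjusted p under 0.05, median 0.14) and for 0 at 1 h (beside 0% of all probe sets, 1 with an unadjusted p under 0.05, median 0.01).

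**Figure D3:**
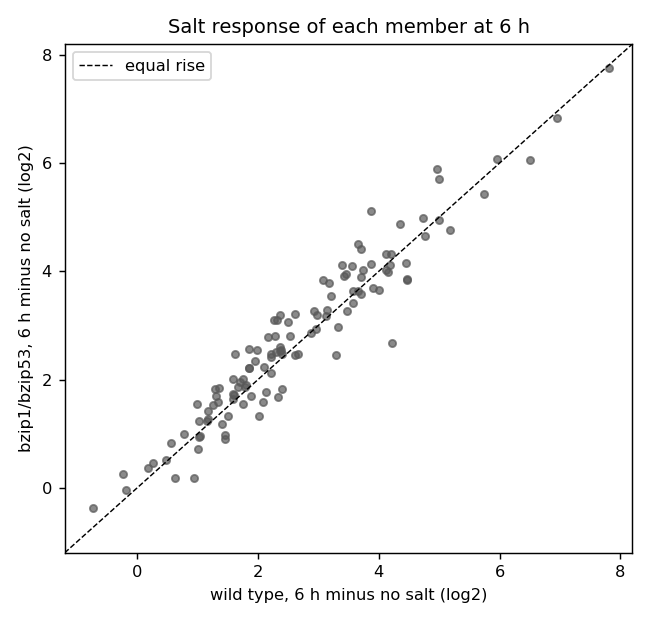
Log2 change at 6 h in 150 mM NaCl against the control of the same genotype, bzip1/bzip53 on the vertical axis and wild type on the horizontal axis, 1 point for each of the 117 genes, with the line of equal change dashed. The points follow the line from about no change to AT2G41730, at 7.76 in the mutant and 7.82 in wild type.

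The genes differed in where the mutant mean at 3 h lay against the wild-type mean at 6 h. As a description, the mutant mean at 3 h exceeded the wild-type mean at 6 h for 85 of the 117 genes, with a median of 0.45 (log2), against 49.1% of all 13356 named genes. The 3 h arrays that chose the genes enter these values, so that nothing is read from the counts. For 48 genes it was at least 0.5 above. In these the mutant mean was lower at 6 h than at 3 h for 44 genes (median change -0.39), while the wild-type mean changed by a median of 0.48. Among all named genes placed the same way, the mutant mean was lower at 6 h for 427 of 463 (92.2%), so that the count among the 48 was near the share that this way of grouping gives. For 52 genes the 2 means lay within 0.5 of each other, with median changes between 3 h and 6 h of 0.04 in the mutant and 1.07 in wild type. For the remaining 17 the mutant at 3 h was at least 0.5 below wild type at 6 h. Their means changed between 3 h and 6 h by a median of 1.08 in the mutant and 2.33 in wild type. The mutant mean was lower at 6 h for 1 of the 17. Among all named genes placed this way it was lower for 15 of 460 (3.26%), so that this count too was near the share that the grouping gives.

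**Figure D4:**
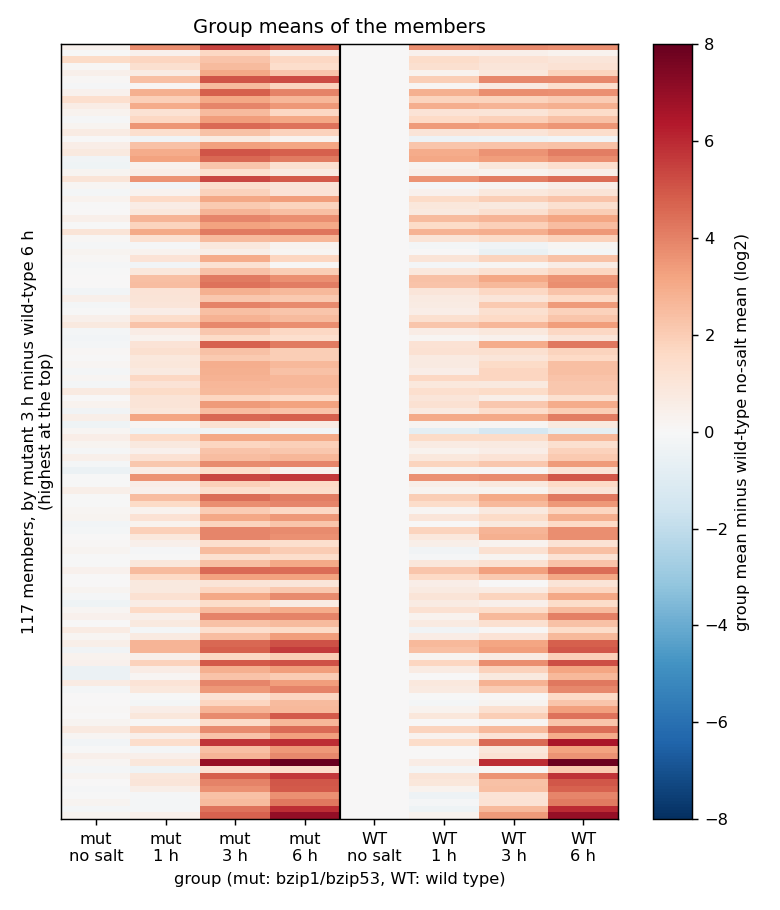
Group means of the 117 genes minus the wild-type control mean (log2, red above and blue below that mean), with the 4 bzip1/bzip53 groups left and the 4 wild-type groups right, and genes ordered by mutant 3 h minus wild-type 6 h. Of the 48 genes at the top the mutant mean is lower at 6 h than at 3 h for 44. In the 17 at the bottom the mutant mean is higher at 6 h for all but UGT73B4. The 3 h arrays set this order, and both counts are near the shares that this grouping gives among all named genes.

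GSTU25 and UGT73B4 were among those 17 genes, and UGT73B5, the neighbour of UGT73B4, among the 52. GSTU25, a tau-class glutathione transferase that joins glutathione to toxic electrophiles, had 5.18, 5.60 and 5.31 in the mutant control, 6.31, 5.82 and 6.81 at 1 h, 9.28, 9.48 and 9.13 at 3 h, and 10.63, 10.90 and 9.41 at 6 h. In wild type it had 5.78, 5.34 and 4.96 in the control, 6.40, 5.86 and 6.49 at 1 h, 7.46, 7.93 and 7.70 at 3 h, and 10.64, 10.32 and 10.10 at 6 h. The genotypes overlapped at each time but 3 h, and by 6 h the gene had risen 31.0-fold in the mutant (4.95 ± 0.33, SE, limma, adjusted p = 1.23e-08) and 31.9-fold in wild type (5.0 ± 0.33, adjusted p = 1.17e-08). Of 9 tau-class glutathione transferases measured, GSTU25 was the one among the 117. At 6 h, 3 of the 9 rose and 3 fell in the mutant, beside 17.5% of all probe sets called higher and 28.1% lower. In wild type 2 rose and 3 fell, beside 15.6% higher and 29.6% lower. The list medians were 0.06 in the mutant and 0.08 in wild type, beside -0.08 over all probe sets in each genotype.

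UGT73B4 and UGT73B5 are neighbouring genes for glucosyltransferases, which attach glucose to small molecules. UGT73B4 had 7.01, 7.15 and 6.95 in the mutant at 3 h, against 5.21, 5.74 and 5.74 in wild type. At 6 h it had 7.22, 7.44 and 5.96 in the mutant, against 7.69, 7.19 and 7.88 in wild type. The wild type had thus passed the mutant's 3 h level in all 3 arrays, and the gene had risen 5.50-fold in the mutant and 9.82-fold in wild type over their controls (limma, adjusted p = 2.03e-05 and 1.1e-06). The control levels of UGT73B4 were near the background in both genotypes, so that these rises have no exact size. UGT73B5 had 7.92, 7.94 and 7.58 in the mutant at 3 h, against 6.65, 6.60 and 6.83 in wild type. Its rise at 6 h was smaller, 2.67-fold in the mutant and 2.25-fold in wild type (limma, adjusted p = 0.00126 and 0.00524).

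AT2G21640, another of the 17, was the gene among the 117 from a list of genes known to respond to mitochondrial stress. It had 8.21, 8.87 and 7.84 in the mutant at 3 h, against 6.60, 7.07 and 7.51 in wild type, and was then higher at 6 h, with 9.82, 10.23 and 8.64 in the mutant, against 9.73, 9.18 and 9.33 in wild type. All 4 measured genes of the list of 11 rose at 6 h in the mutant (median 4.42, beside 17.5% of all probe sets called higher) and in wild type (median 4.29, beside 15.6%). The other 3 were AT5G51440, AT5G09570 and NDB2, an alternative NADH dehydrogenase of the mitochondrial inner membrane, which rose by 3.85 ± 0.21 in the mutant and by 3.84 ± 0.21 in wild type (log2, limma, adjusted p = 1.94e-09 and 2.19e-09). The control means of AT2G21640 and AT5G51440 were near the background in both genotypes, so that the list medians have no exact size.

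LEA4-5, a late embryogenesis abundant protein that protects cells during drying and responds to abscisic acid, had 9.90, 9.08 and 9.98 in the mutant at 3 h, against 8.50, 8.79 and 8.13 in wild type. At 6 h it had 10.23, 10.35 and 8.95 in the mutant, against 10.91, 9.80 and 10.69 in wild type, and overlapped. The control levels, 4.38, 3.32 and 3.64 in the mutant and 3.91, 3.91 and 4.07 in wild type, were near the background, so that the 6 h changes of 6.07 ± 0.43 in the mutant and 6.50 ± 0.43 in wild type have no exact size (log2, limma, adjusted p = 1.86e-08 and 9.54e-09). Of 22 listed abscisic acid response genes 4 were measured, and LEA4-5 was the one among the 117. All 4 rose at 6 h in both genotypes, with a median of 3.18 in the mutant and 2.95 in wild type, and 0 passed the test between genotypes without salt, at 1 h or at 6 h. COR15A, another of the 4, also had control means near the background (4.72 in the mutant and 4.97 in wild type), so that these medians have no exact size. Of all probe sets, 17.5% were called higher at 6 h in the mutant and 15.6% in wild type.

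AT2G41730 and AT5G43450, known here by locus code, also rose at 6 h in both genotypes. AT2G41730 had 11.39, 11.60 and 11.22 in the mutant at 3 h, against 10.31, 10.38 and 10.25 in wild type, and 12.28, 12.72 and 11.99 in the mutant at 6 h, against 12.37, 12.32 and 12.07 in wild type. Its control levels were 4.82, 4.50 and 4.38 in the mutant and 4.75, 4.41 and 4.15 in wild type, which are near the background, so that its change has no exact size. AT5G43450 changed by 6.83 ± 0.24 in the mutant and 6.95 ± 0.24 in wild type at 6 h (log2, limma, adjusted p = 1.56e-11 and 1.2e-11). AT2G04050 changed by 6.08 ± 0.26 in the mutant and 5.96 ± 0.26 in wild type (adjusted p = 1.63e-10 and 2.16e-10), with no call at 1 h in either genotype. The control levels of AT2G04050 were near the background in both genotypes too, so that its changes have no exact size.

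CCR2, APS3, SUFE2, PUB19 and RING1, which carry a symbol, were among the 48 genes. CCR2, a cinnamoyl-CoA reductase of the lignin pathway, had 7.11, 6.48 and 6.29 in the mutant control, 10.05, 9.40 and 10.92 at 1 h, 11.52, 11.59 and 11.42 at 3 h, and 11.12, 11.23 and 10.78 at 6 h. In wild type it had 6.56, 6.40 and 7.77 in the control, 9.74, 9.46 and 10.81 at 1 h, 9.87, 10.45 and 10.50 at 3 h, and 10.56, 10.17 and 11.12 at 6 h. All 3 mutant arrays at 3 h lay above every wild-type array of any time. At 1 h it had risen 11.3-fold in the mutant and 8.53-fold in wild type (limma, adjusted p = 2.6e-05 and 7.86e-05), before the genotypes parted.

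APS3, an ATP sulfurylase that activates sulfate for assimilation, had 11.75, 11.70 and 11.49 in the mutant at 3 h, against 10.65, 10.57 and 10.46 in wild type. At 1 h it had already risen 5.11-fold in the mutant and 5.09-fold in wild type (limma, adjusted p = 8.65e-05 in each), and at 6 h it stood at 11.06, 11.32 and 11.11 in the mutant, against 11.27, 10.92 and 10.95 in wild type. SUFE2, which activates the enzyme that supplies sulfur for iron-sulfur clusters, had 9.76, 9.51 and 9.42 in the mutant at 3 h, against 8.10, 8.54 and 8.53 in wild type. At 6 h it had 9.24, 9.56 and 9.13 in the mutant, against 8.97, 8.83 and 9.24 in wild type. In both genes the genotypes were apart at 3 h and overlapped at 6 h.

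PUB19, a U-box ubiquitin ligase known to dampen drought responses, had 7.47, 6.20 and 6.05 in the mutant control, 9.50, 8.25 and 9.64 at 1 h, 11.27, 10.79 and 11.01 at 3 h, and 10.35, 10.77 and 9.49 at 6 h. In wild type it had 5.36, 5.71 and 7.70 in the control, 9.23, 8.54 and 9.62 at 1 h, 9.93, 10.34 and 9.71 at 3 h, and 10.05, 9.59 and 10.11 at 6 h. The mutant mean was highest at 3 h, while the wild-type arrays of 3 h and 6 h overlapped. RING1, another ubiquitin ligase, had 8.90, 8.90 and 8.18 in the mutant at 3 h, against 6.78, 8.15 and 7.94 in wild type, with a gap of 0.03 between the lowest mutant and highest wild-type array.

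AT3G28580 had 6.57, 4.96 and 4.61 in the mutant control, 7.44, 7.50 and 8.39 at 1 h, 9.69, 9.74 and 9.55 at 3 h, and 9.53, 9.96 and 8.71 at 6 h. In wild type it had 4.42, 4.52 and 7.05 in the control, 7.49, 7.19 and 8.15 at 1 h, 7.38, 7.96 and 8.34 at 3 h, and 9.29, 8.49 and 9.40 at 6 h. The wild-type arrays of 1 h and 3 h overlapped, and those of 6 h lay above both. In the controls, mutant array 1 and wild-type array 3 were again the highest.

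**Figure D5:**
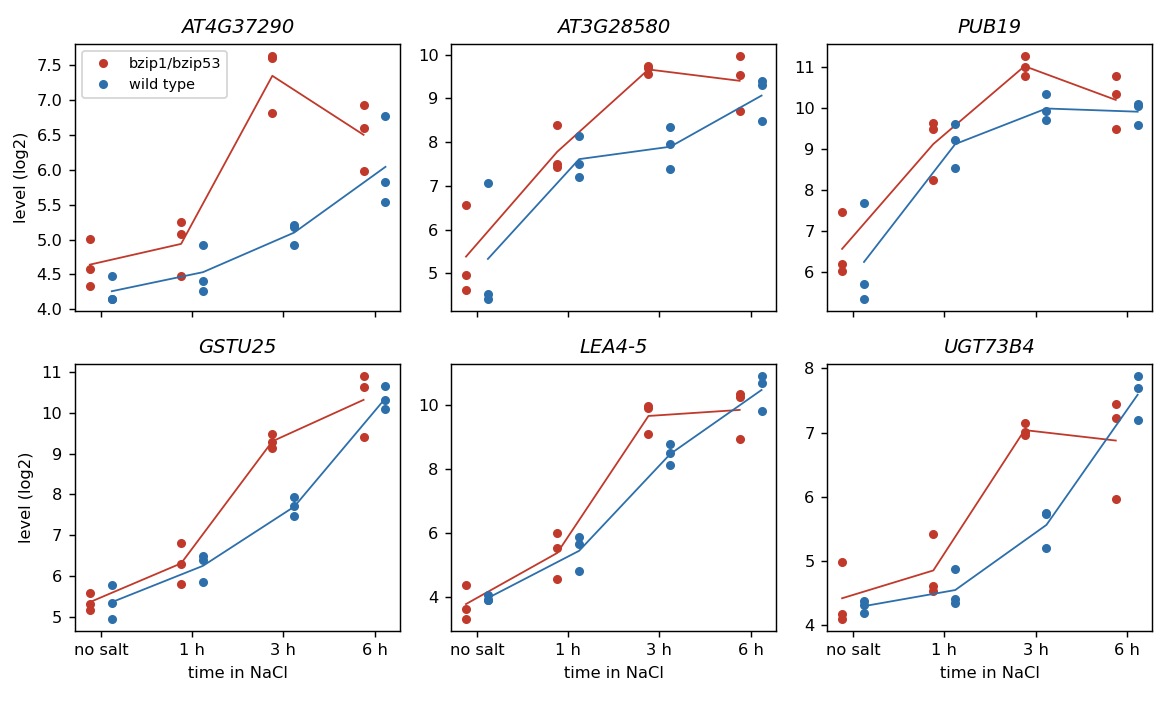
Level (log2) of 6 of the 117 genes in every array (points) with the group means joined by lines, bzip1/bzip53 in red and to the left, wild type in blue, by time in 150 mM NaCl. The mutant means of AT4G37290, AT3G28580, PUB19 and UGT73B4 are highest at 3 h, though their mutant arrays of 3 h and 6 h overlap except in PUB19. The wild-type means are highest at 6 h in every gene shown except PUB19.

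GH3.1, B120 and COR27 were others of the 18 genes that carry a symbol. GH3.1, of a family of enzymes that join amino acids to plant hormones such as auxin, had 7.73, 7.95 and 7.40 in the mutant at 3 h, against 6.16, 6.68 and 6.62 in wild type, and at 6 h 8.60, 8.48 and 7.89 in the mutant, against 7.68, 7.05 and 8.05 in wild type. B120, a receptor-like kinase, had 10.40, 10.32 and 10.08 in the mutant at 3 h, against 8.67, 8.96 and 8.84 in wild type. COR27, a cold-induced regulator tied to the circadian clock, had 8.10, 7.65 and 7.94 in the mutant at 3 h, against 7.01, 6.79 and 6.81 in wild type. At 6 h these 3 genes had risen in both genotypes, GH3.1 the most (8.55-fold in the mutant and 4.96-fold in wild type, limma, adjusted p = 2.07e-07 and 4.94e-06).

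SIS, a salt-induced serine-rich protein, had 10.10, 9.87 and 10.09 in the mutant at 3 h, against 8.50, 8.23 and 8.84 in wild type. At 6 h it had 9.64, 10.47 and 9.16 in the mutant, against 10.49, 10.07 and 10.50 in wild type, a difference of -0.60 ± 0.24 (SE, limma, adjusted p = 0.336), and -0.95 (adjusted p = 0.0247) without mutant array 2. AT4G23590, named after its values were seen, differed by -0.74 ± 0.2 (adjusted p = 0.135), and by -0.96 (adjusted p = 0.0255) without that array. For SIS and AT4G23590, leaving out any other single array brought no call. PRN, a pirin, had 9.09, 8.67 and 8.85 in the mutant at 3 h, against 8.09, 7.39 and 7.39 in wild type, and no call at 1 h in either genotype. At 6 h it had 8.29, 8.62 and 8.08 in the mutant, against 8.79, 8.46 and 8.87 in wild type, a difference of -0.38 ± 0.18 (SE, limma, adjusted p = 0.425), opposite in sign to that at 3 h. ZCF37 had 11.17, 11.33 and 10.81 in the mutant at 3 h, against 9.64, 10.37 and 10.15 in wild type, and 11.40, 11.80 and 11.03 in the mutant at 6 h, against 11.57, 11.09 and 11.27 in wild type. The arrays of PRN and of ZCF37 overlapped between genotypes at 6 h.

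A few of the 117 genes had no call for a rise with salt. No higher call was made in either genotype, at 1 h or 6 h, for AT5G19240, AT1G05575, AT2G21510, AT5G39670, AT1G14780, AT2G20142, AT3G09020 and the calmodulin-like calcium sensor CML42 (8 genes). AT3G09020 had 7.72, 7.80 and 7.27 in the mutant at 3 h, against 6.24, 6.60 and 6.79 in wild type. Its control level was 8.35, 8.05 and 7.67 in the mutant and 7.63, 7.70 and 8.34 in wild type, and the wild-type arrays at 3 h lay below all of these. It changed by -0.48 ± 0.27 at 1 h and -0.37 ± 0.27 at 6 h in the mutant (log2, limma, adjusted p = 0.239 and 0.298). In wild type it fell by 0.80 ± 0.27 at 1 h and by 0.74 ± 0.27 at 6 h (limma, adjusted p = 0.0471 and 0.0376). The 1 h call was lost without wild-type control array 2 or 3 and without array 1 or 2 at 1 h, with adjusted p from 0.0638 to 0.241. The 6 h call was lost without wild-type control array 3 (-0.51, adjusted p = 0.173), without array 1 at 6 h (-0.69, adjusted p = 0.097) and without array 2 at 6 h (-0.57, adjusted p = 0.148).

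DLAH, a lipid acylhydrolase, and MMP, a matrix metalloproteinase, passed at 6 h in wild type and not in the mutant. DLAH had 10.26, 10.62 and 10.18 in the mutant at 6 h and 10.23, 9.30 and 8.86 in the mutant control, against 10.48, 9.99 and 10.32 in wild type at 6 h and 7.79, 8.46 and 10.18 in the wild-type control. The change was 0.89 ± 0.46 in the mutant and 1.46 ± 0.46 in wild type (log2, limma, adjusted p = 0.13 and 0.0166), and the call in wild type was lost without control array 1 (0.94, adjusted p = 0.107), without control array 2 (1.28, adjusted p = 0.0649) or without array 1 at 6 h (1.35, adjusted p = 0.0546). MMP changed by 0.96 ± 0.38 in the mutant and 1.03 ± 0.38 in wild type (adjusted p = 0.0512 and 0.0377), and its wild-type call was lost without control array 1 (0.78), control array 2 (0.83), array 1 at 6 h (1.06) or array 3 at 6 h (0.81), with adjusted p from 0.0694 to 0.161. The difference between the responses of the genotypes did not pass for any of the 5 genes. In DLAH and MMP the control arrays that stood apart were the highest of their groups.

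The level of many genes before salt was close to the background. A group mean under 5 on the log2 scale was found for 44 of the 117 genes in the mutant without salt, and for 25, 1 and 2 after 1 h, 3 h and 6 h. In wild type the same counts were 47 without salt, then 26, 12 and 2. Fold changes of these genes against the control have no exact size.

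Some of the genes lay close together in the genome. In the order of protein-coding genes, 16 of the 117 (13.7%) had another of the 117 within 5 genes, against 508 of the 12176 other named genes (4.17%) with 1 of the 117 that near. The pairs were AT3G28580 and AT3G28610, AT2G04050 and AT2G04070, AT2G32020 and AT2G32030, AT5G52750 and AT5G52760, UGT73B4 and UGT73B5, AT5G22530 and AT5G22540, AT4G23590 and AT4G23610, and AT5G14700 and AT5G14730. Neighbours of similar sequence can share probe signal, and this was not tested. At 6 h AT2G04050 had 10.12, 10.50 and 9.25 in the mutant, against 10.35, 9.83 and 9.89 in wild type. Its neighbour AT2G04070 had 8.67, 9.31 and 7.77 in the mutant, against 8.85, 8.27 and 8.39 in wild type. In both genes mutant array 3 was the lowest of its group.

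The genes known to respond to low oxygen, a list of 30 of which 12 were measured, held none of the 117. Since 0.895% of 1-gene probe sets met the criteria, nothing is read from this. At 3 h 10 of the 12 were lower in the mutant than in wild type, 8 of them by at least 1, with a median difference of -1.47 (range -2.06 to 0.45, log2, a description with no test since these arrays chose the 117 genes). The median over all probe sets was -0.01, and 37 of 13513 1-gene probe sets met the mirrored criteria. At 6 h 3 of the 12 had risen and 1 had fallen in the mutant (median 0.76), beside 17.5% of all probe sets called higher and 28.1% lower. In wild type 6 had risen and 0 had fallen (median 1.00), beside 15.6% higher and 29.6% lower. Outside the 3 h arrays the mutant means were mostly above those of wild type: for 11 of the 12 genes in the control (median difference 0.48), for 12 at 1 h (0.23) and for 11 at 6 h (0.27), of which 0 passed the test as higher. Of all probe sets, 43.1%, 48.2% and 47.0% were above at these times. The signs of genes of the same list are not shown to be independent. The exception at 6 h, AT3G10020, was lower in the mutant (-0.55 ± 0.091, limma, adjusted p = 0.0111), 1 call among the 12 beside 0.361% of all probe sets.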

How the data were processed

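Total RNA of roots was measured on 24 Affymetrix ATH1 arrays, 3 in each of 8 groups taken from the labels. The authors' deposited table holds log2 values, as inferred from their range of 2.46 to 14.04. RMA, affy and limma are named without versions, with TAIR9 as the build, per the submitters' processing notes. RMA corrects background, quantile-normalizes and summarises probe sets, so that a global shift in RNA would not be seen. Of 22810 probe sets 64 controls were left out. The platform's gene table gave 1 gene for 13513 of the 22746 probe sets tested, several for 503 and none for 8730. Symbols came from a RefSeq table of TAIR10.1 (13436 matched, 77 kept an older name), used only for names and gene order. Where several probe sets read the same gene (146 genes), that of highest mean stood for it.

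The members, gene lists and tests were chosen with earlier results of these data known. One limma fit (3.58.1, R 4.3.3) of 6 group means over the 18 arrays that did not choose the genes had 12 residual and 3.77 prior degrees of freedom. Tests were two-sided, with Benjamini-Hochberg adjustment over 22746 probe sets in each of 9 comparisons and calls under 0.05. The number of arrays limits the precision. The fit was tested on simulated data. Figures were drawn with matplotlib in Python. Errors are SD for levels and SE for differences.

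Genes named were the 12 with the largest 3 h difference, up to 8 called genes of smallest adjusted p per comparison and direction, list genes, those at the threshold, the 6 with the largest 6 h genotype difference and BZIP53. The genes with a symbol, and the neighbours, were named after their values were seen. Of 11 gene lists 2 held cell-type markers, 4 had at least 3 genes measured, and the other 5 are counted in the closing section.

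Same-numbered arrays deviated together in every pair in mutant against wild type at 1 h (r = 0.18, 0.70 and 0.72 over probe sets) and in wild type at 6 h against control (0.15, 0.27 and 0.41). The same held in wild type at 1 h against control (0.09, 0.43 and 0.58) and in the mutant at 6 h against control (0.21, 0.07 and 0.08). The tests in the text used no pairs. For mutant against wild type at 1 h and wild type at 6 h against control, the numbers were treated as pairs in an alternative fit. With the replicate number as a block and only the compared groups, 0 genes passed at 1 h and 111 at 6 h.

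Alternatives were a fit of all 24 arrays, only the compared groups, the replicate block, leaving out dim probe sets (group mean under 5 in every group), renewed quantile normalization, a minimum log2 difference of 1, leaving out each array, other thresholds for choosing the genes, and, chosen after seeing the data, leaving out 2 outlying control arrays.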

Additional observations from a re-analysis of the deposited data

Results flagged for a closer look

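CML42, the gene for a calmodulin-like calcium sensor, was picked out because salt moved every 3 h array of the mutant above its control and every 3 h array of wild type below its control. It had 8.96, 8.99 and 8.84 in the mutant at 3 h and 8.83, 8.72 and 8.41 in the mutant control, against 7.80, 7.86 and 8.05 in wild type at 3 h and 8.19, 8.36 and 8.83 in the wild-type control (log2). The 2 changes differed by 0.83. This difference was not tested, because the 3 h arrays chose the gene. At 6 h neither change passed the test (-0.04 ± 0.27 in the mutant and -0.18 ± 0.27 in wild type, SE, limma, adjusted p = 0.93 and 0.642), and the genotypes overlapped.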

How the results depend on the processing

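With a minimum difference of 0.5 the criteria at 3 h took 484 genes, and with 1.5 they took 20. Leaving out 1 of the 3 h arrays left between 94 and 169 genes. Between genotypes at 6 h, 2 of the 117 genes passed with all 24 arrays in the fit (AT1G15330, -0.83, and AT2G26690, -0.53). That fit holds the 3 h arrays that chose the genes, and this choice can shrink its spread. Nothing is therefore read from these 2 calls. With dim probe sets left out 1 gene passed (AT1G15330), and 0 to 4 did when 1 array was left out (4 without mutant array 2, 1 without wild-type array 2). The counts at 1 h against control ran from 20 to 55 in the mutant and from 26 to 55 in wild type when 1 array was left out, and 28 passed in the mutant with a log2 difference of at least 1. The cause of these changes was not tested. At 6 h against control the counts stayed between 101 and 109 in the mutant and between 103 and 111 in wild type under the settings tried. Genotype comparisons in the control and at 1 h, and both differences of salt responses, kept 0 calls under every setting tried. With the replicate number as a block, 0 genes passed in each genotype comparison and difference of responses, 54 and 107 in the mutant at 1 h and 6 h, and 51 and 109 in wild type, so that no count moved by over 1.5 times. Of 145 calls and differences of named genes recomputed, 23 lost the call in at least 1 setting, 19 of them at 1 h against control. AT1G15330 between genotypes at 6 h gained one, as did AT2G26690, AT4G23590 and SIS, whose comparisons between genotypes were not among the 145. No difference changed its direction. Signal near the background limits the size of changes from the control.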

Other observations

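Further gene lists held none of the 117 genes and had 1 or 2 genes measured. ORA47, the measured gene of 19 jasmonate genes, rose at 6 h by 4.57 in the mutant and by 4.23 in wild type (log2, both called by limma). Both measured genes of 15 heat-shock genes, AT1G53540 and AT5G51440 of the mitochondrial list, rose at 6 h, with medians of 4.77 in the mutant and 4.61 in wild type. Of all probe sets, 17.5% were called higher in the mutant and 15.6% in wild type. The control means of both heat-shock genes were near the background in both genotypes, so that these medians have no exact size. AT5G38710, the measured gene of 7 proline genes, rose by 2.94 in the mutant and by 2.28 in wild type. EIN3, of 14 ethylene genes, fell by 0.30 in the mutant and by 0.26 in wild type. AT3G15450, of 13 sugar-starvation genes, fell by 0.45 in the mutant, and in wild type its change of -0.28 did not pass. None of these 6 genes passed the test between genotypes in the control, at 1 h or at 6 h.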
